A study of Mus musculus with 14 samples.

Results

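Of 63177 Gfi1 antibody islands called in neurospheres labelled Cas9, 3999, or 6.33%, met a rule that places them over acetylated promoters of tumour cells. They were thus chosen by measured overlaps with the Cas9 tumour lists and both Gfi1 lists, so that these overlaps are no finding. An island is a run of enriched windows joined across gaps. The rule kept each island that shared at least 1 bp with a Gfi1 antibody island of the neurospheres labelled Suz12F2, with an H3K4me3 peak of Cas9 tumour cells and with an H3K27ac peak of the same tumour cells. It then removed those that overlapped an H3K27me3 island of Cas9 tumour cells or any island called with an antibody to Cas9. The 3999 islands are called promoter islands below. The word promoter rests on H3K4me3 alone, since no gene annotation was used here, and all positions are in build mm9.

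The series is a set of 14 mouse ChIP-seq libraries, which sequence the DNA that an antibody retrieves together with its target, and 11 lists of enriched regions from it were analysed here. The knockout tumour cells were p53-/-;p18-/-;Ezh2-/- and the Cas9 tumour cells p53-/-;p18-/-, and both were profiled for H3K27me3, H3K27ac and H3K4me3. The Suz12F2 and the Cas9 neurospheres were both labelled p53-/-;p18-/- and were profiled with an antibody to Gfi1, while an antibody to Cas9 was used in neurospheres labelled Suz12F2, Suz12F1 and U6. Loss of p53 and p18 was thus shared by every group, controls included. Per the design text, the series is about tumorspheres of Myc-driven Group 3 medulloblastoma, a cerebellar tumour of childhood, on a mixed background with Myc overexpressed. The labels say that tumorsphere cells were infected with retroviral vectors, sorted by fluorescence and expanded in culture before transplantation into the cortex of CD-1 nu/nu mice, which lack mature T cells. They do not say whether the profiled cells were taken before or after transplantation, whether a line was 1 clone, how old the animals were, or what U6, F1 and F2 stand for. Each group held 1 library, so replicate error is unknown throughout and no test across samples was possible. H3K27me3 islands covered 18.6 Mb in the knockout and 71.4 Mb in Cas9 cells.

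Gfi1 is a zinc finger repressor that binds DNA and recruits the demethylase LSD1, CoREST and histone deacetylases, and its activation is known in human Group 3 medulloblastoma. H3K4me3 marks the starts of genes, and H3K27ac marks active promoters and enhancers. Ezh2 is the enzyme of Polycomb repressive complex 2, which places H3K27me3 on silenced genes, and Suz12 is a core subunit of that complex. H3K27me3 and H3K27ac sit on the same lysine and cannot both occupy it on 1 histone tail. The histone marks came from tumour cells and the Gfi1 islands from neurospheres, so their overlap is between lists from different cells.

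The conditions of the rule left progressively fewer islands. Of the 63177 islands, 48093 were overlapped by a Suz12F2 island, or 76.1%. Of those, 8910 also held an H3K4me3 peak, and 5448 of these held an H3K27ac peak as well. Outside H3K27me3 islands 5054 remained. A further 1055 were left out for a Cas9 antibody island alone, which came from the U6 list for 837 of them, from the Suz12F1 list for 18 and from the Suz12F2 list for 410, with some held by more than 1 list. For an H3K27me3 island alone 253 were left out, and for both reasons 141. The islands left out for H3K27me3 alone had a median length of 15800 bp, against 3800 bp for those left out for the Cas9 antibody alone.

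Few islands lay near the limits of the rule. The smallest best overlap of a promoter island was 98 bp with an H3K4me3 peak, 31 bp with an H3K27ac peak and 400 bp with a Suz12F2 island, and 2 promoter islands shared under 50 bp with H3K27ac. Just outside, 59 islands lacked only H3K4me3, the nearest at a gap of 68 bp, and 1852 lacked only H3K27ac, the nearest at 26 bp. Only 4 islands met every other condition and lacked a Suz12F2 island, and the nearest such island was 5800 bp away.

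Promoter islands were short and had a high score for their length. Their lengths ran from 400 to 82000 bp, with a median of 3000 bp and quartiles of 1800 and 6200 bp. The median was 6200 bp for the 8606 shared islands over tumour H3K27me3, 4200 bp for the 30598 shared islands without a tumour mark, 3600 bp for the 1852 shared islands over H3K4me3 alone and 4000 bp for all islands. The rule itself bears on length. Before islands over H3K27me3 or a Cas9 antibody island were removed, the median of the 5448 islands was 3400 bp. Choice by overlap with H3K27me3 in turn favours long islands. The authors' score, whose meaning the files do not state, had a median per kb of length of 52.5 in promoter islands, within a range of 26.1 to 135. The corresponding medians were 42.9 over H3K27me3, 40 without a mark, 49.2 over H3K4me3 alone and 40.4 in the whole list. The total score was 155 at the median of promoter islands and 150 in the whole list. Scores are compared within 1 list only. With the upper 50% of Gfi1 scores alone the median length was 6000 bp, since the score is higher in longer islands.

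**Figure D1:**
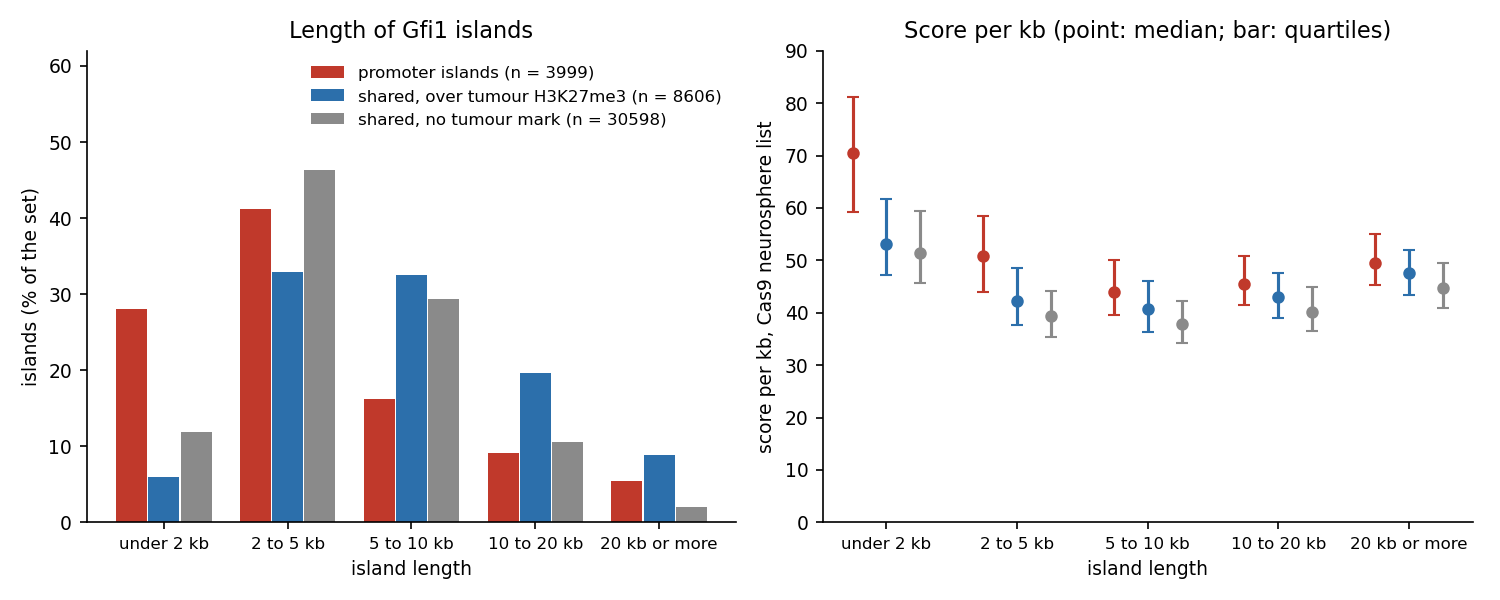
Left, share of each set of Gfi1 islands of Cas9 neurospheres (percent, linear axis from 0) in 5 length classes; right, median score per kb in the Cas9 neurosphere list with quartile bars. Promoter islands hold 28.0% in the class under 2 kb, where their median score per kb is 70.6.

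Short islands had the highest score per kb in each of these sets. Among promoter islands the median was 70.6 for the 1121 under 2 kb, 50.9 for the 1648 from 2 to 5 kb, 44.0 for the 650 from 5 to 10 kb, 45.5 for the 364 from 10 to 20 kb and 49.5 for the 216 of 20 kb or more. Islands over H3K27me3 had medians of 53.1, 42.3, 40.7, 43.0 and 47.6 in the same order of classes, and those without a mark 51.4, 39.3, 37.9, 40.2 and 44.8. The gap between promoter islands and unmarked islands was therefore widest under 2 kb and smaller in each longer class. Shared islands over H3K4me3 alone came closer, with 63.6 under 2 kb and 48.2 from 2 to 5 kb. In the longer classes they had 44.5, 44.9 and 49.7 in the same order. Above 5 kb promoter islands thus did not stand apart from islands over H3K4me3 alone. Of promoter islands 1642, or 41.1% (Wilson 95% interval 39.5 to 42.6, for counting error only), lay in the upper 10% of score per kb of the list, against 28.9% over H3K4me3 alone, 9.21% over H3K27me3 and 6.31% without a mark.

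The same order stood in the list of Suz12F2 neurospheres. The 4705 Suz12F2 islands that overlapped promoter islands had a median percentile of 87.3 by score per kb in their own list, where promoter islands had a median percentile of 85.5 in the Cas9 list. Over H3K4me3 alone the median percentiles were 79.8 in the Suz12F2 list and 79.5 in the Cas9 list. Over H3K27me3 they were 53.8 in the Suz12F2 list and 60.7 in the Cas9 list, and without a mark 39.7 and 48.2 in the same order. The Suz12F2 islands at promoter islands had a median score per kb of 56.6, against 34.1 in the whole Suz12F2 list.

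The 5 promoter islands with the highest score per kb measured 600 to 1400 bp, and each was covered whole by 1 Suz12F2 island. They were picked by score per kb in the Cas9 list, which favours a lower value in any second list. Values of both lists are given for description and are not compared. The first, chr8:113551201-113551800, had 100 score units per kb in its Suz12F2 partner and 135 in the Cas9 list. It held 1 H3K4me3 peak and 1 H3K27ac peak in the knockout and likewise in Cas9 cells. The second, chr5:147644401-147645200, had 46.2 units per kb in its Suz12F2 partner and 131 in the Cas9 list, and the third, chr5:124889601-124890800, had 49.8 and 131 in the same order. The fourth, chr11:61080201-61081200, had 128 units per kb in its Suz12F2 partner and 129 in the Cas9 list, and held 2 H3K4me3 peaks in the knockout and 1 in Cas9 cells. In all 5, each H3K4me3 and H3K27ac peak of Cas9 cells was called again in the knockout.

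Most promoter islands had a single partner in the Suz12F2 list. One Suz12F2 island overlapped 3470 of them, 2 overlapped 384, and 3 to 6 overlapped the remaining 145. Suz12F2 islands covered 81.1% of the summed length of promoter islands, against 81.2% over H3K4me3 alone, 80.4% over H3K27me3 and 73.1% without a mark. They covered 1379 promoter islands whole, or 34.5%, and less than 50% of the length of 371. Among the 3191 one-to-one pairs the Suz12F2 island was longer in 1181, equal in 429 and shorter in 1581, with a median length ratio of Suz12F2 over Cas9 of 1.00. In 290 pairs both ends were identical. The median ratio was 0.938 over H3K4me3 alone, 0.889 over H3K27me3 and 0.857 without a mark. These sets also hold longer islands than the promoter islands, and the part of length in their ratios was not tested. The list of Suz12F2 neurospheres as a whole had a median length of 3000 bp and that of Cas9 neurospheres 4000 bp.

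The cover and the ratio differed with length. The Cas9 length cuts the classes and is the denominator of both, which favours high ratios in short islands in any second list. Under 2 kb 90.8% of the length was covered and the median ratio was 1.14. From 5 to 10 kb the cover was 71.7% and the ratio 0.741, and 21.2% of islands met 2 or more Suz12F2 islands. At 20 kb or more the cover was 88.9%, and 74.5% met 2 or more. Across the 3191 pairs the rank correlation (Spearman) was 0.543 for score per kb and 0.694 for length. These describe pairs that share 2 libraries, and short and long islands differ in score per kb within each of them.

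Many tumour peaks lay in promoter islands, and most tumour peaks lay in some Gfi1 island. All Gfi1 islands of Cas9 neurospheres covered 368 Mb. They held 12608 of the 14417 H3K4me3 peaks of the knockout and 12410 of the 14363 of Cas9 cells. Of H3K27ac they held 8899 of the 10112 knockout peaks and 6927 of the 7951 Cas9 peaks. Promoter islands contained 5569 H3K4me3 peaks of the knockout, 38.6% of that list, and 5692 of Cas9 cells, 39.6%. They contained 4876 H3K27ac peaks of the knockout, 48.2% of that list, and 4883 of Cas9 cells, 61.4%. Every promoter island has a Cas9 peak of both marks by rule, so the Cas9 numbers are a description. Most Cas9 peaks were called again in the knockout, so the rule also raises the knockout numbers. In Cas9 cells 2689 promoter islands held 1 H3K4me3 peak, 1034 held 2, 204 held 3, 48 held 4, and 24 held 5 to 7. Of H3K27ac, 3224 held 1 peak, 678 held 2, 86 held 3, 10 held 4 and 1 held 5. The commonest pattern was 1 peak of each mark, in 2418 promoter islands, or 60.5%, with a median length of 2600 bp. Several H3K4me3 peaks with 1 H3K27ac peak were found in 806, the opposite in 271, and several of both in 504.

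The number of peaks grew far less than the length. The mean number of H3K4me3 peaks of Cas9 cells was 1.24 under 2 kb, 1.40 from 2 to 5 kb, 1.495 from 5 to 10 kb, 1.60 from 10 to 20 kb and 2.05 at 20 kb or more. For H3K27ac it was 1.14, 1.24, 1.23, 1.31 and 1.34 in the same classes. H3K4me3 peaks covered 59.2% of the summed length under 2 kb and 5.01% at 20 kb or more, and H3K27ac peaks covered 34.8% and 1.82%. A long promoter island was therefore mostly without either mark of the tumour cells. The 24 promoter islands with 5 or more H3K4me3 peaks had a median length of 24200 bp.

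**Figure D2:**
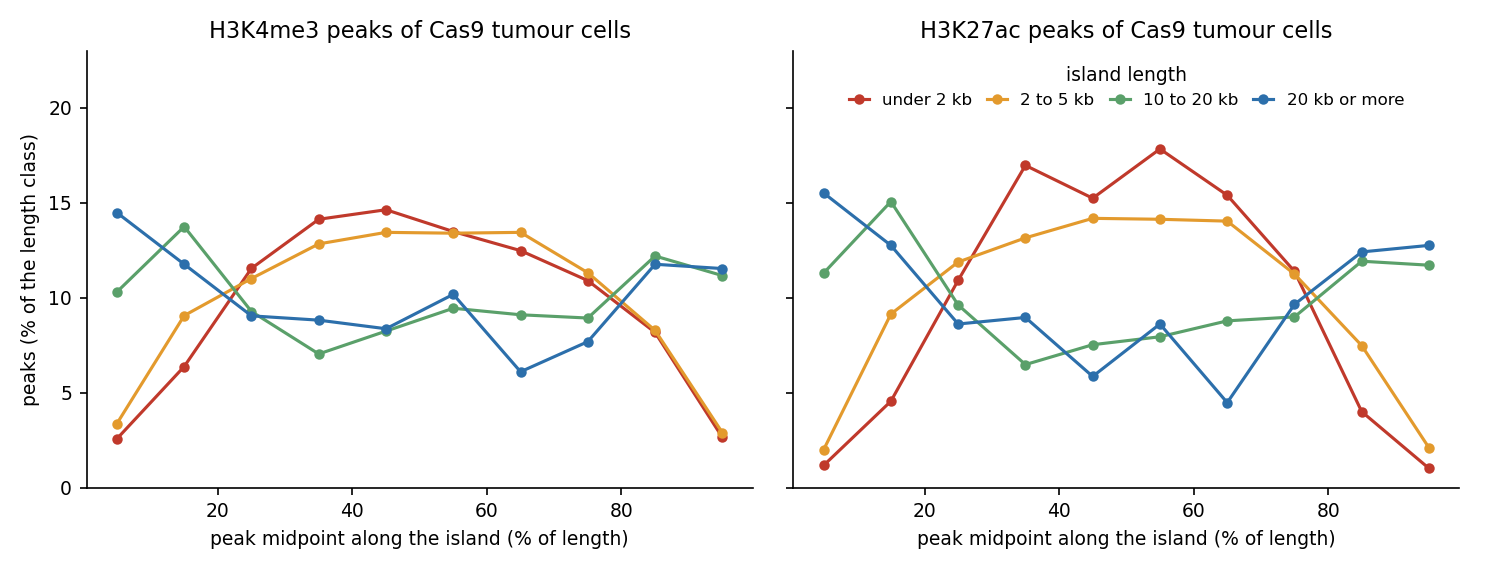
Position of H3K4me3 (left) and H3K27ac (right) peaks of Cas9 tumour cells along promoter islands: x, peak midpoint in percent of island length from its lower to its higher coordinate; y, percent of the peaks of a length class in each bin of 10% of the island. Peaks centre in islands under 5 kb, whereas in islands of 10 kb or more the outer bins hold the larger shares.

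In long promoter islands the outer parts held larger shares of the peaks than the middle. In short ones the peaks fill much of the island, which limits where their midpoints can lie. Of H3K4me3 peaks in islands under 2 kb, 28.2% had their midpoint in the middle 20% of the island and 5.24% in the outermost 10% at either end. At 20 kb or more these shares were 18.6% and 26.02%. H3K27ac behaved alike, with 33.2% in the middle and 2.20% at the ends under 2 kb, and 14.5% and 28.3% at 20 kb or more. The shares at the ends climbed through every class, to 13.5% for H3K4me3 and 13.7% for H3K27ac from 5 to 10 kb. At 20 kb or more, 49.5% of H3K4me3 and 53.4% of H3K27ac midpoints lay in the outer 20% at either end. The outermost 10% of both ends together is as long as the middle 20%, so these shares compare stretches of equal length. No even spread was computed for comparison, so the strength of the tilt is not judged here. The median distance of an H3K4me3 midpoint to the nearer end of the island was 404 bp in the shortest class and 5713 bp in the longest. Of the peaks in all classes, 85.5% of H3K4me3 peaks and 96.5% of H3K27ac peaks lay wholly inside.

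The 2 marks mostly coincided within a promoter island. Of its H3K27ac peaks in Cas9 cells 4745 of 4883, or 97.2% (96.7 to 97.6), overlapped an H3K4me3 peak, against 93.8% of the H3K27ac peaks elsewhere. Of the H3K4me3 peaks 4454 of 5692, or 78.3%, overlapped an H3K27ac peak, against 30.7% elsewhere, a share that the rule raises. In 25 promoter islands the marks lay side by side with no H3K4me3 peak touching an H3K27ac peak, so the label of an acetylated promoter holds there only at the scale of the island. Among promoter islands, which all hold both marks, the score per kb of an island was nearly unrelated to the scores of the tumour peaks inside. Its rank correlation with the highest H3K4me3 score inside was -0.08 over 3999 islands and 0.06 over the 1648 from 2 to 5 kb, and with the highest H3K27ac score 0.02 and 0.08.

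The comparison of Ezh2 knockout with Cas9 tumour cells asked what became of these marks when Ezh2 was missing. Most promoter islands held peaks of both marks in the knockout too. A knockout H3K27ac peak was present in 3819 of 3999, or 95.5% (94.8 to 96.1), against 95.7% of all Gfi1 islands with a Cas9 H3K27ac peak. A knockout H3K4me3 peak was present in 3948, or 98.7% (98.3 to 99.03), against 95.5% of all Gfi1 islands with a Cas9 H3K4me3 peak. Both were present in 3786, or 94.7% (93.9 to 95.3), counting islands in which only another peak than the Cas9 one was called. H3K4me3 without H3K27ac was present in 162, H3K27ac without H3K4me3 in 33, and neither in 18. The highest Cas9 H3K27ac score inside was 22.1 at the median of islands with both marks in the knockout, 12.9 in those with H3K4me3 alone and 11.4 in those with neither. The highest Cas9 H3K4me3 score was 40 in islands with both, 15 in those with H3K27ac alone and 13 in those with neither. Islands without a knockout call therefore had low-scoring peaks in Cas9 cells.

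Of the 4883 H3K27ac peaks in promoter islands, 4467 were called again in the knockout, or 91.5% (90.7 to 92.2), and the share over all H3K27ac peaks of Cas9 cells was 91.4%. The promoter islands did not stand apart from that background. Among H3K27ac peaks at H3K4me3 the share was 92.1% (91.3 to 92.8) in promoter islands, against 93.1% (92.1 to 94.0) of those elsewhere outside H3K27me3. With the lists of each mark trimmed by score to equal length, the share in promoter islands was 82.7%. Trimming left 7951 of the 10112 knockout peaks, and the share over all H3K27ac peaks was not computed under it. Without trimming, islands left out for a Cas9 antibody island gave 93.6% and those left out for H3K27me3 alone 92.1%.

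Of the 5692 H3K4me3 peaks, 5015 were called again, or 88.1% (87.2 to 88.9), and the share over the whole list was 85.4%. Peaks that carried H3K27ac and peaks that did not differed widely. With H3K27ac, 4329 of 4454 were called again, or 97.2% (96.7 to 97.6), against 96.8% (96.0 to 97.4) of such peaks elsewhere outside H3K27me3. Without H3K27ac, 686 of 1238 were called again, or 55.4% (52.6 to 58.2), against 74.2% (72.9 to 75.5) of the 4341 elsewhere that lacked both H3K27ac and H3K27me3. The unacetylated H3K4me3 peaks of promoter islands were small, with a median score of 14 and length of 296.5 bp, against 37 and 792.5 bp for the acetylated ones in the same islands and 18 and 417 bp for the unacetylated ones elsewhere. Another H3K4me3 peak lay within 1 kb of 1109 of the 1238, or 89.6%, at a median gap of 168.5 bp over all 1238, against 41.9% of the unacetylated peaks elsewhere. The rule raises this share, since all but 25 promoter islands hold an acetylated H3K4me3 peak. Among peaks with such a neighbour 53.7% (50.7 to 56.6) were called again in promoter islands and 64.5% (62.3 to 66.7) elsewhere, and among those without one 70.5% (62.2 to 77.7) and 81.3% (79.7 to 82.7). The difference therefore remained within both classes, and it was smaller than in the whole sets.

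**Figure D3:**
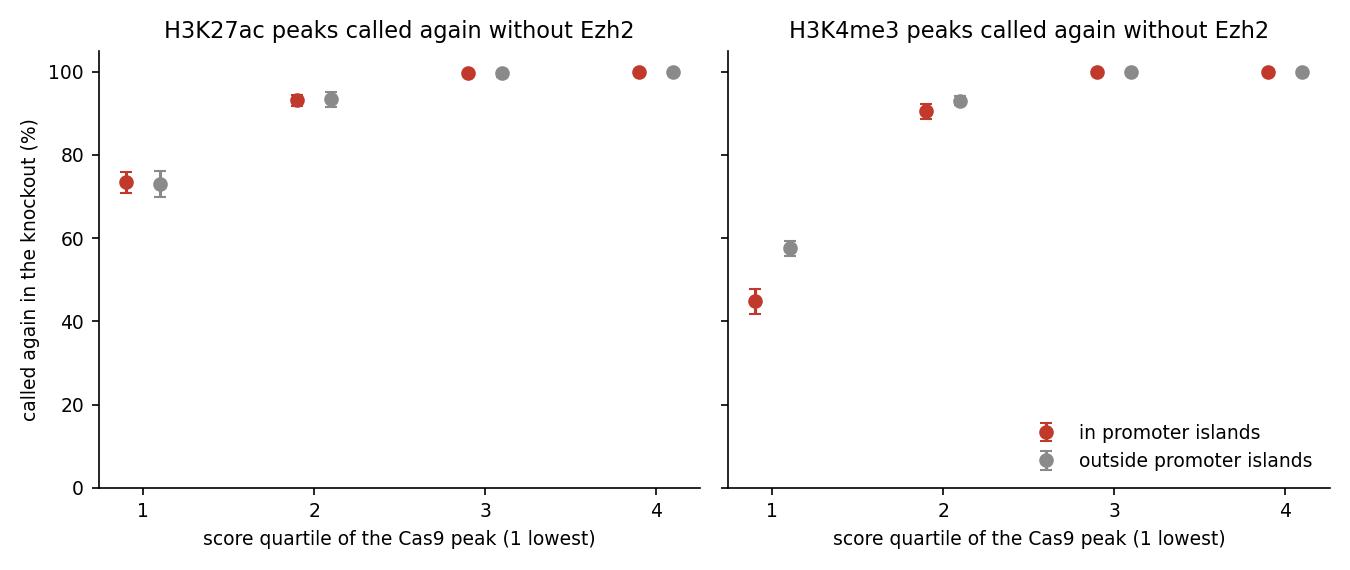
Share of Cas9 tumour peaks called again in the Ezh2 knockout (percent, with Wilson 95% intervals) by quartile of peak score, 1 the lowest, for H3K27ac (left) and H3K4me3 (right), inside and outside promoter islands. Only for H3K4me3 of the lowest quartile do the points stand well apart, at 44.8% in promoter islands and 57.6% outside.

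Whether a peak was called again followed its score. For H3K27ac the shares in promoter islands were 73.5%, 93.1%, 99.7% and 100% from the lowest to the highest score quartile of the list, beside 73.1%, 93.5%, 99.6% and 100% outside them. For H3K4me3 they were 44.8%, 90.6%, 100% and 99.9% in promoter islands and 57.6%, 93.0%, 99.8% and 100% outside. In the highest quartile 1870 of 1871 H3K4me3 peaks of promoter islands were called again, and in the quartile below it all 1727. The shares also differed with the length of the island. H3K4me3 was called again for 91.2% (89.6 to 92.5) under 2 kb, 89.2% from 2 to 5 kb, 86.7% from 5 to 10 kb, 82.5% (79.2 to 85.3) from 10 to 20 kb and 83.5% at 20 kb or more. H3K27ac was called again for 92.3% (90.7 to 93.6), 92.2%, 91.2%, 87.9% (84.6 to 90.5) and 89.7% in the same classes. The median H3K27ac score was 20.4 under 2 kb and 17.1 at 20 kb or more, and that of H3K4me3 33 and 29, and the part of score in these differences was not tested. In islands from 2 to 5 kb, quartiles of the Gfi1 score per kb had shares of 93.4%, 92.7%, 93.8% and 89.4% for H3K27ac and of 89.4%, 89.4%, 87.6% and 90.3% for H3K4me3, with no order.

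The H3K4me3 peaks of promoter islands were mostly narrower in the knockout, as were those of the whole list, and the H3K27ac peaks were slightly wider. Among 4093 pairs of H3K4me3 peaks with exactly 1 partner, the median width was 627 bp in the knockout and 731 bp in Cas9 cells, with a median ratio of 0.885 (quartiles 0.753 and 1.00). The knockout peak was narrower in 3049 of these pairs, or 74.5%, against 68.5% of all such pairs in the lists and 64.4% of the 6082 outside promoter islands. Binning by the Cas9 width, the denominator of the ratio, favours narrowing of wide peaks in any second library, so only the 2 sets within a quartile are compared. By quartile of the Cas9 width from low to high, 48.2%, 67.3%, 77.7% and 83.7% were narrower in promoter islands, beside 36.6%, 64.8%, 72.8% and 76.9% outside. The same bins of H3K27ac gave 21.2%, 39.4%, 46.9% and 48.6% in promoter islands, beside 16.5%, 32.0%, 42.5% and 49.0% outside. For H3K27ac the median width over 4163 pairs was 435 bp in the knockout and 397 bp in Cas9 cells, with a ratio of 1.05 (0.919 to 1.25). The knockout peak was narrower in 1667, or 40.04%, against 38.9% of all pairs and 37.0% of the 2541 outside.

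**Figure D4:**
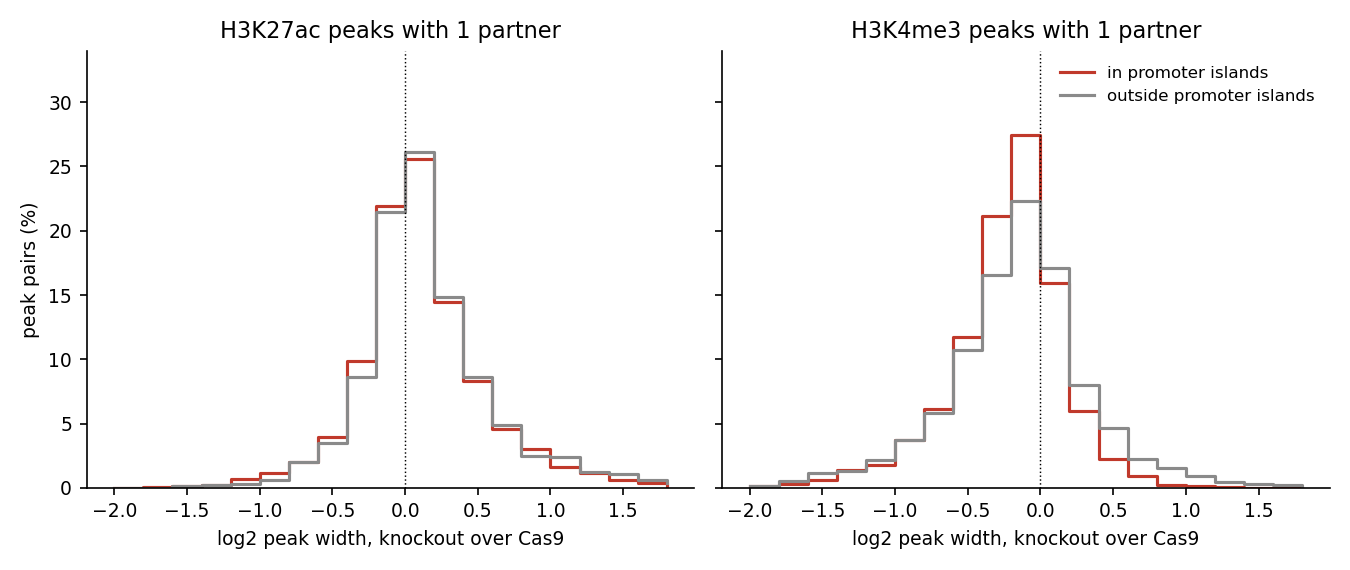
Distribution of log2 width ratios, Ezh2 knockout over Cas9, of peaks with exactly 1 partner: H3K27ac (left) and H3K4me3 (right), inside and outside promoter islands, in percent of pairs. The dotted line marks equal width, with the bulk of H3K4me3 pairs of promoter islands to its left (74.5% narrower).

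Summed over promoter islands, H3K4me3 covered 3504 kb in the knockout and 4145 kb in Cas9 cells, a ratio of 0.845, where the ratio of the whole lists was 0.879. Less H3K4me3 length was found in the knockout in 3138 promoter islands, or 78.5%, and more in 843. H3K27ac covered 2281 kb in the knockout and 2135 kb in Cas9 cells, a ratio of 1.07, where the ratio of the whole lists was 1.28. More H3K27ac length was found in 2332 promoter islands, or 58.3%, and less in 1653. The matching shares over other Gfi1 islands are not given here, so these counts do not set promoter islands apart. Promoter islands were chosen for a Cas9 peak of each mark, which favours Cas9 in all these sums and counts. Sums over regions called separately in each library also move with how much was called, and read depth is unknown.

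H3K27ac peaks called in the knockout alone formed a small part of the knockout peaks in promoter islands. They made up 388 of the 4876 knockout peaks inside, or 7.96% (7.23 to 8.75), against 28.1% of the whole knockout list, a share that the rule lowers because each island already holds a Cas9 peak. At least 1 lay in 361 promoter islands, or 9.03% (8.18 to 9.96), against 3.6% of all Gfi1 islands. Of all 63177 Gfi1 islands only 8921 hold a Cas9 H3K4me3 peak, whereas each promoter island does by rule, so the 2 shares are not alike in this. In 24 promoter islands there were 2 or more H3K27ac peaks of the knockout alone. The 388 peaks had a median length of 224 bp and a median score of 13.4, against 19.1 for the knockout list, and 312 of them, or 80.4%, lay at an H3K4me3 peak of Cas9 cells. With lists trimmed to equal length 4.37% of promoter islands held such a peak, and with the upper 50% of peak scores alone 3.99%, under a smaller number of islands. With the upper 50% of Gfi1 scores the share was 12.0%. The matching shares over all Gfi1 islands were not computed under these alternatives. An H3K27ac peak of Cas9 cells alone lay in 395 promoter islands, or 9.88%, against 0.874% of all Gfi1 islands, of which few hold any Cas9 H3K27ac peak whereas each promoter island does by rule.

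**Figure D5:**
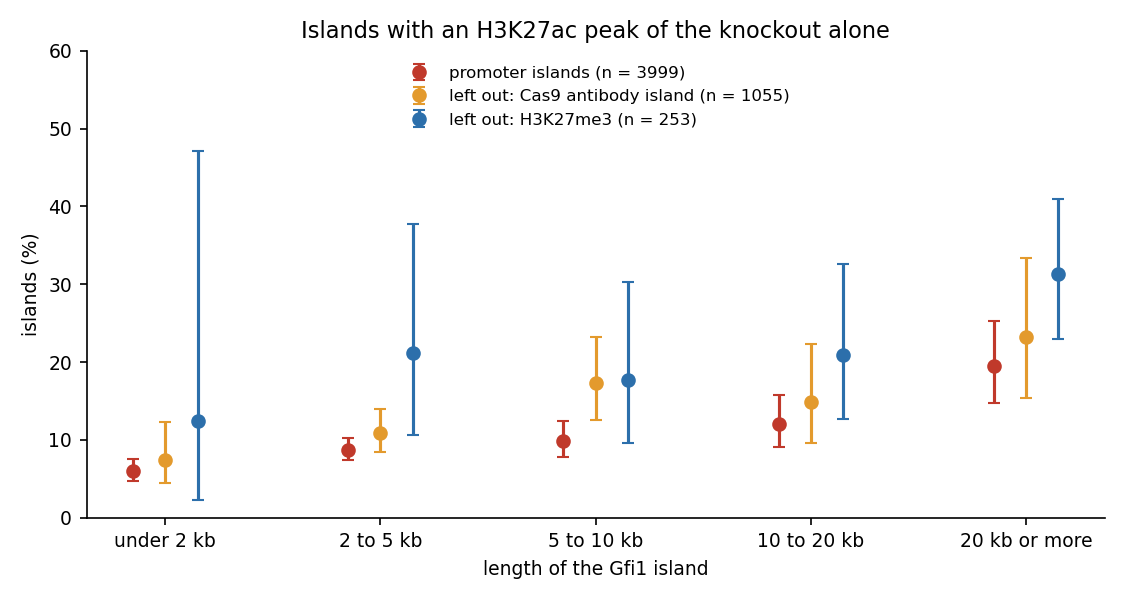
Share of islands that hold at least 1 H3K27ac peak of the Ezh2 knockout alone (percent, Wilson 95% intervals) by island length, for promoter islands and for the islands left out for a Cas9 antibody island alone or for H3K27me3 alone. Among promoter islands the share is 5.98% under 2 kb and 19.4% at 20 kb or more, and it is higher in both left-out sets of each class.

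The share grew with island length, from 5.98% under 2 kb through 8.74%, 9.85% and 12.1% to 19.4% at 20 kb or more. Islands left out for a Cas9 antibody island alone held such a peak in 136 of 1055, or 12.9% (11.0 to 15.05), and those left out for H3K27me3 alone in 61 of 253, or 24.1% (19.3 to 29.7). The last set was long, and at 20 kb or more its share was 31.3% (23.02 to 41.0), against 19.4% (14.7 to 25.2) of promoter islands. The intervals of these 2 sets overlapped in every class other than 2 to 5 kb, where they were 10.7 to 37.8 for the islands left out for H3K27me3 and 7.47 to 10.2 for promoter islands. Those of the islands left out for the Cas9 antibody lay above those of promoter islands only from 5 to 10 kb, at 12.6 to 23.3 against 7.79 to 12.4.

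The H3K4me3 peaks of promoter islands without H3K27ac seldom overlapped it in the knockout. In the knockout 191 of 1238, or 15.4% (13.5 to 17.5), overlapped an H3K27ac peak, against 25.9% of all H3K4me3 peaks of Cas9 cells that lacked H3K27ac and H3K27me3 and 28.8% (27.5 to 30.2) of those outside promoter islands. The shares in promoter islands were lower at each score. In the lowest score quartile they were 7.66% in promoter islands and 11.8% outside, in the second 24.8% and 29.5%, and in the third 40.6% of 96 peaks and 55.9%. In the highest quartile they were 43.8% of 16 peaks (23.1 to 66.8) and 61.4%. The intervals of the 2 sets overlapped in the second and the highest quartile. With another H3K4me3 peak within 1 kb the shares were 14.2% (12.2 to 16.3) in promoter islands and 17.7% (16.0 to 19.5) outside, with overlapping intervals. Without one they were 26.4% (19.5 to 34.6) and 36.9% (35.0 to 38.8). Most of the 1238 had such a neighbour, and the difference within either class was smaller than in the whole sets.

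H3K4me3 peaks of the knockout alone were 188 of the 5569 knockout peaks inside, or 3.38%, against 9.84% of the knockout list, a share that the rule lowers as it does for H3K27ac. They lay in 185 promoter islands, or 4.63% (4.02 to 5.32), against 1.77% of all Gfi1 islands, most of which hold no Cas9 H3K4me3 peak. The 188 peaks had a median length of 214 bp and a median score of 11, against 22 in the list. H3K4me3 peaks of Cas9 cells alone lay in 591 promoter islands, or 14.8% (13.7 to 15.9), against 2.37% of all Gfi1 islands, and here too each promoter island holds a Cas9 peak by rule.

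An H3K27me3 island of the knockout overlapped 35 promoter islands, or 0.875% (0.630 to 1.21), against 5.09% of all Gfi1 islands, and the promoter islands hold none in Cas9 cells by rule. With the upper 50% of Gfi1 scores alone the share was 1.61%, with no matching value computed over the list. No such island lay in the 1121 promoter islands under 2 kb, which by 3 counts of the total allows a share of up to 0.268%, with a Wilson upper limit of 0.342%, whereas 13 of 216, or 6.02%, held one at 20 kb or more. The 35 had a median length of 11400 bp, and their H3K27me3 islands measured 1000 to 5400 bp with scores of 21 to 63, where the list had a median of 39. Of the H3K27me3 islands, 14 overlapped an H3K4me3 peak of the knockout and 12 an H3K27ac peak. The highest-scoring of the promoter islands concerned, chr11:102048001-102092800, spans 44.8 kb and held an H3K27me3 island of 3200 bp with a score of 35. It held 2 H3K4me3 peaks in the knockout and 3 in Cas9 cells, and 1 H3K27ac peak in each.

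Single long islands show how the marks were spread. The longest promoter island, chr7:52067401-52149400, spans 82.0 kb and was covered to 86.8% by 5 Suz12F2 islands. It held 4 H3K4me3 peaks in the knockout and 4 in Cas9 cells, and 4 H3K27ac peaks in the knockout and 3 in Cas9 cells, of which all the Cas9 peaks were called again. The next, chr11:98749201-98819600, spans 70.4 kb and held 2 H3K4me3 peaks of 1029 bp in sum in the knockout, against 6 of 3034 bp in Cas9 cells, while H3K27ac covered 1246 bp in the knockout and 1307 bp in Cas9 cells. At the fourth longest, chr15:84483401-84544200, of 60.8 kb, H3K4me3 covered 1483 bp in 2 peaks in the knockout and 3139 bp in 6 peaks in Cas9 cells, and H3K27ac 634 bp and 352 bp in the same order. The other two of the 5 longest differed from these. The third longest, chr2:32438601-32507400, held no H3K27ac peak in the knockout and 1 in Cas9 cells, and 2 H3K4me3 peaks in the knockout and 3 in Cas9 cells. The fifth, chr17:56571401-56628600, held 3 H3K4me3 peaks in the knockout and 2 in Cas9 cells, and 1 H3K27ac peak in each.

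The 4 promoter islands with 7 H3K4me3 peaks in Cas9 cells held 4 or 5 in the knockout. Picking by the Cas9 count favours a lower count in any second list, so the values are a description of these islands. They were chr7:52953401-52991600, chr17:27068601-27102600, chr17:34064601-34093600 and chr15:78743801-78768800. At the second of them H3K4me3 covered 2104 bp in the knockout and 4489 bp in Cas9 cells, and at the third 5205 bp and 6525 bp. At the third island 6 of the 7 Cas9 peaks were called again, although the knockout list held 5 peaks there.

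In 201 promoter islands no H3K27ac peak of Cas9 cells was called again, and 21 of these held another H3K27ac peak of the knockout. The highest-scoring was chr2:32438601-32507400, of 68.8 kb, whose H3K27ac peak of Cas9 cells measured 269 bp with a score of 12.5, while all of its 3 H3K4me3 peaks were called again. In 55 promoter islands no H3K4me3 peak was called again. The highest-scoring, chr5:125662401-125700800, of 38.4 kb, held no knockout peak of either mark, and in Cas9 cells an H3K4me3 peak of 204 bp with a score of 10 and an H3K27ac peak of 170 bp with a score of 9.99. The next, chr2:30504801-30535000, held 3 H3K27ac peaks of 1373 bp in sum in the knockout and 2 of 1142 bp in Cas9 cells, and its only H3K4me3 peak, of 180 bp in Cas9 cells, had a score of 8.

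The largest number of H3K27ac peaks of the knockout alone in a promoter island was 3. Islands picked by this number have more knockout peaks by choice, so the values below are a description. At chr9:108468001-108486400 there were 4 H3K27ac peaks of 974 bp in sum in the knockout, against 1 of 320 bp in Cas9 cells, with 4 H3K4me3 peaks in each. At chr1:182256601-182267000 H3K27ac covered 1117 bp in 4 peaks in the knockout and 456 bp in 1 peak in Cas9 cells, with 3 H3K4me3 peaks in each. At chr2:56966601-56970000, an island of 3.4 kb, it covered 1264 bp in 4 peaks in the knockout and 453 bp in 1 peak in Cas9 cells. There H3K4me3 also had more peaks in the knockout, 5 against 2 in Cas9 cells, 1 of them of the knockout alone.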

How the data were processed

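The 11 region lists, each from 1 library, were analysed without the 3 input libraries. Build mm9 is named per the submitters' processing notes, which also list SICER 1.1, BWA 0.5.9-r26, R 2.14.0, SAMtools and Picard without their roles. Per the names the authors gave the island lists, calls used a false discovery rate of 0.00001, windows of 200 bp and gaps of 600 bp. For the H3K27ac and H3K4me3 peaks, no caller is named in these sources. The authors deposited a score for each region, whose meaning is not stated. Read depth is unknown. The lists of Cas9 tumour cells number their regions, and 71 H3K27me3, 375 H3K27ac and 486 H3K4me3 regions were not analysed here, nor were 105, 363 and 467 of the knockout.

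Overlaps of at least 1 bp, lengths and scores were computed with Python 3.11.15, numpy 2.4.6, pandas 2.3.3 and scipy 1.17.1, and 1 bp was added to island ends, which the lists count from 0. Figures were drawn with matplotlib 3.10.9. The number of promoter islands was checked with bedtools 2.31.1, which also gave 3999. Only the totals were compared, not the single islands. The scripts were tested on simulated data. A peak was called again when a knockout peak overlapped it. Shares carry Wilson 95% intervals for counting error only. With 1 library per group no test was made.

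Members and lists were chosen with earlier results of these data known. The splits by score quartile, by island length and by neighbouring H3K4me3 peaks were added after values were seen. Alternatives were 50% overlap, the upper 50% of tumour peak or of Gfi1 scores, no removal of Cas9 antibody islands, lists of equal length and autosomes alone. Regions named are drawn from sets of 5 promoter islands each, by score per kb, by length, by number of H3K4me3 peaks, by absence of a repeated call of either mark, by H3K27ac peaks of the knockout alone and by H3K27me3 in the knockout. An annotation of build mm9 was not used here, so neither genes nor sequences are given.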

Additional observations from a re-analysis of the deposited data

How the results depend on the processing

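Of 60 values, from 10 results under 6 alternatives, 39 moved little and 21 moved further. A reversal was defined only for the width ratios of H3K4me3 and H3K27ac, and of these 0 reversed. With autosomes alone none of the 10 moved. With 50% overlap the cover by Suz12F2 islands was 79.8% and H3K4me3 was called again for 86.7%. With the upper 50% of tumour peak scores 2104 promoter islands were left, with 80.3% cover, 93.3% of H3K27ac and 92.2% of H3K4me3 peaks called again, 3.99% of islands with H3K27ac of the knockout alone and an H3K27ac width ratio of 1.03. With the upper 50% of Gfi1 scores there were 2051, with a median length of 6000 bp, 48.75 score units per kb and 79.0% cover. There H3K27ac was called again for 90.6% and H3K4me3 for 85.9%, 12.0% held H3K27ac of the knockout alone and 1.61% H3K27me3 of the knockout. Without removal of Cas9 antibody islands there were 5054 islands, within the wide band, with a median length of 3200 bp and 81.8% cover. With lists of equal length the cover was 81.7%, H3K27ac was called again for 82.7%, and 4.37% held H3K27ac of the knockout alone. The alternatives were computed for promoter islands alone, without matching values over whole lists. Higher thresholds keep fewer peaks or longer islands by construction. The cause of the other movements was not tested.

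No paired analysis was possible because each group has 1 library, and leaving out a replicate leaves none. Read depth, the meaning of the score and the variation between cultures are unknown, so differences between lists cannot be told apart from differences between libraries. Whether the Gfi1 antibody islands differ from input was not tested.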

Other observations

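Promoter islands were found on all 19 autosomes and on chromosome X. They made up 4.53% of the Gfi1 islands of chromosome 14 and 9.65% of those of chromosome 3, the lowest and highest shares among autosomes. On chromosome X the list of Cas9 neurospheres held 267 islands in all, of which 47, or 17.6%, were promoter islands. Chromosome 18, the autosome with the fewest Gfi1 islands, held 1261. The H3K27ac list of Cas9 tumour cells held 122 peaks on chromosome X and 210 on chromosome 18.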
